A study of Mus musculus with 3 samples.

Results

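The TRIM (tripartite motif) family was followed in the cytosolic RNA of mouse macrophages. Its members were taken as the genes with at least 1 transcript annotated as protein coding and a symbol of Trim followed by a digit. The rule found 68 genes among 21901 genes with such a transcript and 55536 genes in all. It uses names only and no measured value. Trim30e-ps1, a pseudogene on chromosome 7 that does not meet the rule, had 0 counts in every library.

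Bone marrow of C57BL/6J mice was the source of the cells, which are primary macrophages. They were held for 12 h in 100 ng/ml Lipid A, the endotoxin part that Toll-like receptor 4 recognises, then kept without it for 12 h, and given a second dose of 100 ng/ml for 10 min. Ribosomal RNA was removed from the cytosolic RNA, and 1 µg entered each library. The 3 libraries are biological replicates 1, 2 and 3 of this single condition. They carry the same donor identifier, and no label states that separate animals gave them, so differences between them may be technical. The p-values below test these differences against counting error alone. Such p-values become smaller as counts rise and do not measure the size of the spread. Libraries of untreated cells, of cells treated once or of nuclear RNA were not analysed here, and the values are therefore levels and not responses to Lipid A. The libraries held 32108408, 53165872 and 57117456 expected counts. Of 8 macrophage markers all 8 reached 1 TPM in every library, while the markers of T and NK cells, B cells, erythroid cells, fibroblasts, muscle and neurons had summed levels of at most 0.1 TPM in any library and those of dendritic cells at most 0.18 TPM. The neutrophil marker S100a8 stood at 2.64, 2.29 and 4.18 TPM in replicates 1, 2 and 3, with Ly6g and Retnlg at 0. In such bulk RNA, fewer cells that express a gene and less of its RNA per cell cannot be told apart.

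TRIM proteins typically carry a RING domain, which recruits a ubiquitin-conjugating E2 enzyme, then B-box and coiled-coil domains that build the oligomer, and a C-terminal domain that binds the target. Many are induced by interferon and act in innate immunity, either by restricting viruses directly or by attaching ubiquitin to sensors and adaptors of antiviral and Toll-like receptor signalling. Mouse Trim30a restrains Toll-like receptor signalling by promoting loss of the adaptors encoded by Tab2 and Tab3. Trim25 activates the RNA sensor RIG-I, which Ddx58 encodes, and Trim21 is a cytosolic receptor for antibody bound to virus. Other members serve muscle, erythroid cells, neurons or the early embryo.

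A RING pattern was found in the longest annotated protein of 54 of the 68 members, and the absence of a match does not show that the domain is missing. Within the Trim30 genes the coding sequence of this domain shows how alike the copies are to which reads must be assigned. The lines below hold, for each gene, the coding stretch from the first to the last zinc-binding residue of the RING pattern, from GENCODE M21 transcripts on GRCm38, on the gene's strand. Capitals mark the codons of the 8 zinc-binding cysteines and histidines that a pattern search found.
Trim30a, chr7:104435828-104435959, minus strand, residues 15 to 58: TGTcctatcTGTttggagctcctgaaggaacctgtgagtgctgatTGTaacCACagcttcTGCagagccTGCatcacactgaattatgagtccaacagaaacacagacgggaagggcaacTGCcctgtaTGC
Trim30d, chr7:104487822-104487953, minus strand, residues 15 to 58: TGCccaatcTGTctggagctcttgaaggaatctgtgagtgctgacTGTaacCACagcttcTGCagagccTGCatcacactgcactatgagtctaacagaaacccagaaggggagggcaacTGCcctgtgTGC
Trim30c, chr7:104390410-104390541, minus strand, residues 16 to 59: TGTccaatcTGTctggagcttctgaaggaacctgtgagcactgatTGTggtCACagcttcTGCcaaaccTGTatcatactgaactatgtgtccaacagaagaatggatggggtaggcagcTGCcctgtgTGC
Trim30b, chr7:104366003-104366137, minus strand, residues 15 to 59: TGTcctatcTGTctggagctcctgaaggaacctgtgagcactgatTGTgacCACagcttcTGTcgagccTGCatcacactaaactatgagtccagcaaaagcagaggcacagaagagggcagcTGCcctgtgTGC
Over this stretch Trim30a differed from Trim30d at 13 of 132 bases and from Trim30c at 25 of 132 bases. Trim30b is 135 bases long here and was not compared base by base. Over the whole coding sequence, the longest annotated Trim30a protein was identical to that of Trim30d at 82.7% of 496 aligned residues, to Trim30c at 72.2% and to the shorter Trim30b product of 203 residues at 72.6% of 201 aligned residues. By the same measure Trim30a shared 38.0% of residues with Trim21 and 26.8% with Trim25.

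Trim34a and Trim34b, neighbours of the Trim30 genes, are still more alike and are shown because their levels differed most among near copies. Their proteins were identical at 97.9% of 485 residues, and the stretches below differ at 4 of 132 bases.
Trim34a, chr7:104247773-104247904, plus strand, residues 15 to 58: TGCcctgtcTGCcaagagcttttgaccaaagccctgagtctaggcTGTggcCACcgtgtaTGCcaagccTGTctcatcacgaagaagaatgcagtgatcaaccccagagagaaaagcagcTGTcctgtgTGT
Trim34b, chr7:104329590-104329721, plus strand, residues 15 to 58: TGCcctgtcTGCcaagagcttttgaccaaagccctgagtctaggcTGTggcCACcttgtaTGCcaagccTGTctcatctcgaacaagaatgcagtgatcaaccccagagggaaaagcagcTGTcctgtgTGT
The Trim5, Trim12a and Trim12c proteins were likewise close, with 93.3% identity between Trim5 and Trim12a, 94.4% between Trim5 and Trim12c and 91.9% between Trim12a and Trim12c. Per gene, as deposited, a total of 9 among the 30 detected members had counts more than 0.05 from a whole number, which marks reads shared with another entry. They were Trim30a, Trim30d, Trim14, Trim12a, Trim34a, Trim12c, Trim65, Trim5 and Trim47. The authors' posterior SD of the count was at most 0.511% of the count in any of them (Trim34a), and Trim30a and Trim30d had the same posterior SD of 11.28, 14.26 and 13.79 counts in replicates 1, 2 and 3.

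Levels are given in TPM, a transcript abundance whose values correct for transcript length and are scaled to a fixed total per library. Protein-coding genes of the nuclear genome held 34.3%, 27.8% and 27.7% of this total in replicates 1, 2 and 3, so a gene at an equal share of mRNA has a higher TPM in replicate 1. A member was called detected at 1 TPM or more in every library and silent under 0.1 TPM in every library. Of the 68 members 30 (44.1%) were detected, 13 were low and 25 (36.8%) were silent. Among the 21833 other genes with a protein-coding transcript, 41.6% were detected and 45.9% were silent. The median member stood at 0.855 TPM and the median of the other genes at 0.17 TPM. Detected members had a median of 10.5 TPM, against 8.74 TPM for all 9119 detected genes. The family took 0.224%, 0.185% and 0.194% of the TPM of nuclear-encoded protein-coding genes in replicates 1, 2 and 3.

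The detected members were spread unevenly over the groups. All 4 Trim30 genes were detected, as were 4 of the 6 genes that neighbour them on chromosome 7, with none silent in either group. Among 21 other members known from antiviral or innate signalling 15 were detected, 2 were low and 4 were silent. Of the remaining 37 members 7 were detected, 9 were low and 21 were silent. The median level was 47.05 TPM for the Trim30 genes, 9.51 TPM for their neighbours, 4.95 TPM for the other antiviral members and 0.0133 TPM for the remaining members. These groups follow known function and position, and they were drawn up with earlier results of these data known, so their order is a description.

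**Figure D1:**
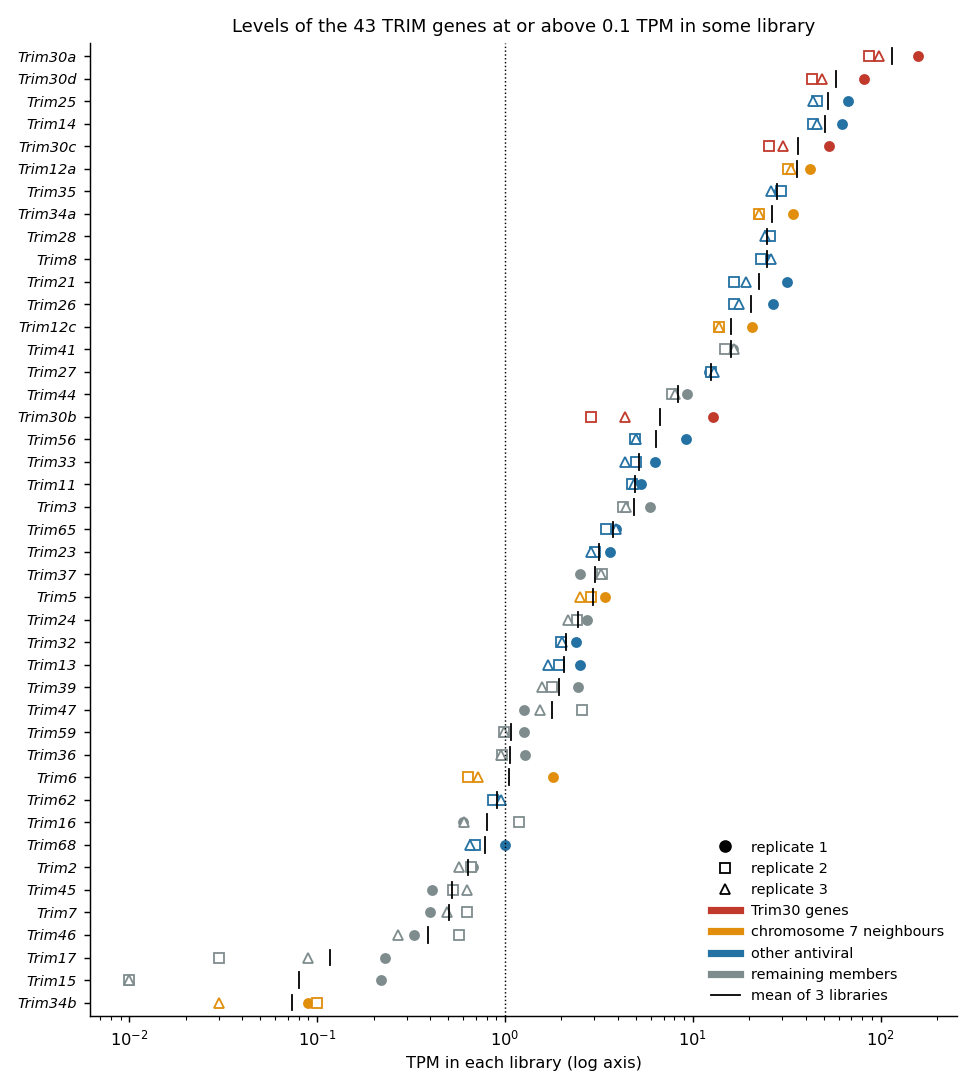
TPM on a log axis for the 43 members that reached 0.1 TPM in at least 1 library, ordered by mean, with filled circles, open squares and open triangles for replicates 1, 2 and 3, a black line at the mean and a dotted line at 1 TPM. Trim30a is highest in each library, at 158.28, 86.97 and 97.96 TPM, and Trim34b lowest of those shown by its mean.

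Trim30a (ENSMUSG00000030921.17, chr7:104409025-104465193) was the highest member in every library. It stood at 158.28, 86.97 and 97.96 TPM in replicates 1, 2 and 3, a mean of 114 ± 38.4 TPM (SD, n = 3), on 25253, 28833 and 35912 expected counts. Trim30a alone made 18.6% ± 1.87 of the family's TPM. No other member's value in a library reached that of Trim30a in the same library.

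Trim30d (ENSMUSG00000057596.13, chr7:104470014-104507849), the copy beside it, had 81.49, 43.36 and 48.73 TPM, a mean of 57.9 ± 20.6 TPM (n = 3). Trim30c (ENSMUSG00000078616.2, chr7:104382065-104400837) had 53.06, 25.49 and 30.17 TPM, a mean of 36.2 ± 14.8 TPM (n = 3). Trim30b (ENSMUSG00000052749.9, chr7:104355382-104369884) had 12.82, 2.89 and 4.35 TPM, a mean of 6.69 ± 5.36 TPM (n = 3). The 4 copies kept the order Trim30a, Trim30d, Trim30c, Trim30b in each library, and in all 4 replicate 1 was highest and replicate 2 lowest. Together they made 39.8%, 30.9% and 33.6% of the family's TPM, a mean of 34.8% ± 4.56 (n = 3), and 35.7% ± 4.46 of its expected counts.

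The Trim30 genes end a run of 10 members that lie side by side on chromosome 7. Trim12a, a short mouse relative of the retrovirus restriction factor Trim5, stood at 41.94, 32.21 and 33.18 TPM in replicates 1, 2 and 3. Trim34a, an interferon-induced member, had 34.26, 22.55 and 22.63 TPM. Trim12c, a full-length relative of Trim5, had 20.66, 13.73 and 13.88 TPM. These 3 genes lay between Trim30b and Trim30a in every library.

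The other neighbours were lower. Trim5 itself had 3.43, 2.88 and 2.50 TPM in replicates 1, 2 and 3. Trim6, which builds unanchored ubiquitin chains in interferon signalling, had 1.80, 0.64 and 0.72 TPM and was not counted as detected. Trim34b had 0.09, 0.10 and 0.03 TPM on 6.68, 15.65 and 4.53 expected counts, although its sequence is nearly that of Trim34a. The counts of Trim34b are not whole numbers, which marks shared reads. The posterior SDs given above cover detected members only, so the exact level of Trim34b is uncertain. The 10 genes together made 53.1%, 44.9% and 47.2% of the family's TPM, a mean of 48.4% ± 4.22 (n = 3).

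**Figure D2:**
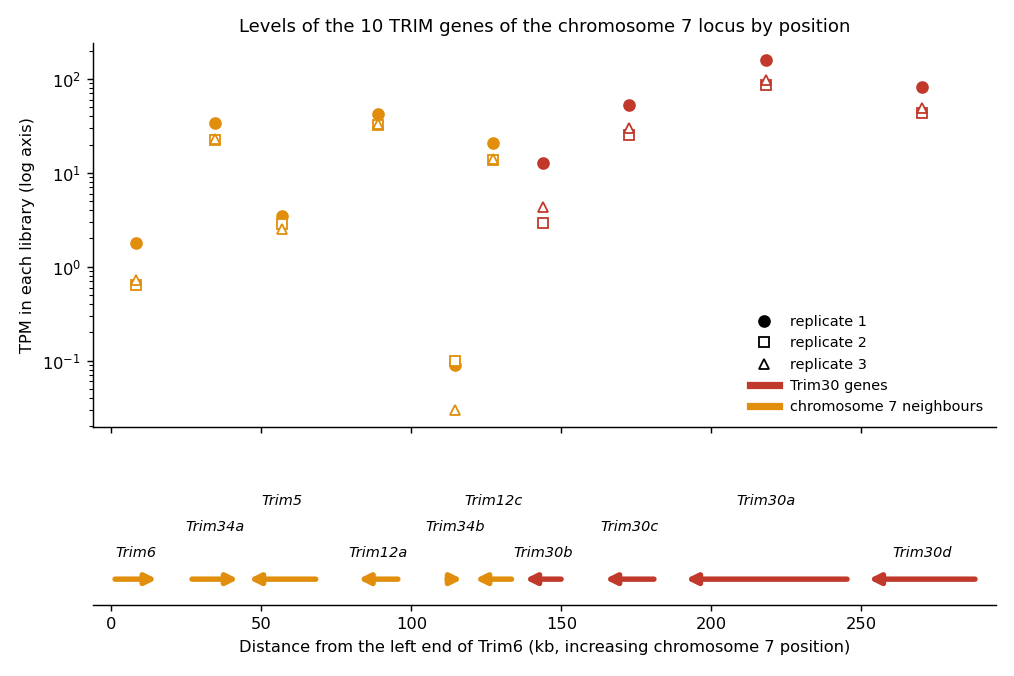
The upper panel gives TPM on a log axis for the 10 members of the chromosome 7 locus in replicates 1 (filled circles), 2 (open squares) and 3 (open triangles), and the lower panel gives each gene's extent and direction against distance in kb from the left end of Trim6. The Trim30 genes (red) fill the right part and reach 158.28 TPM, while Trim34b lies at 0.1 TPM or less between genes of over 13 TPM.

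Members outside this locus that act in antiviral or innate signalling made 40.9%, 46.8% and 45.0% of the family's TPM in replicates 1, 2 and 3. Trim25 (ENSMUSG00000000275.16, chr11:88999376-89020293) led them with 67.08, 46.00 and 43.60 TPM, a mean of 52.2 ± 12.9 TPM (n = 3). Trim14 (ENSMUSG00000039853.18, chr4:46493781-46536141), an adaptor at MAVS that lacks a RING domain, had 62.00, 43.80 and 46.03 TPM, a mean of 50.6 ± 9.93 TPM (n = 3). Trim30d, Trim25 and Trim14 held ranks 2 to 4 by mean and traded ranks between libraries, so their order does not exceed their spread.

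Trim35, reported to limit signalling through Irf7, had 28.85, 29.39 and 26.23 TPM in replicates 1, 2 and 3. Trim28, the corepressor KAP1 of zinc finger proteins, had 25.10, 25.69 and 24.17 TPM. Trim8, which acts in NF-kB signalling, had 24.94, 23.21 and 26.06 TPM. On this scale their SDs were 1.69, 0.766 and 1.44 TPM around means of 28.2, 24.99 and 24.7 TPM (n = 3 each), and their ranks overlapped. Rescaled to nuclear-encoded protein-coding genes they were lowest in replicate 1, with SDs of 10.9, 10.01 and 10.6 around means of 94.8, 84.3 and 83.4 TPM.

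Trim21 (ENSMUSG00000030966.13, chr7:102557921-102565486) had 31.88, 16.59 and 19.29 TPM in replicates 1, 2 and 3, a mean of 22.6 ± 8.16 TPM (n = 3). Trim26, which acts on Irf3, had 26.92, 16.53 and 17.68 TPM. Trim27, which acts on kinases of the interferon response, had 12.28, 12.56 and 12.91 TPM. The 3 marker genes of the family, Trim30a, Trim25 and Trim21, were thus all above 16 TPM in every library.

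Lower detected members of this group ranged down to 1.70 TPM. Trim56, a regulator of STING and Toll-like receptor 3 signalling, had 9.23, 4.95 and 5.01 TPM in replicates 1, 2 and 3. The chromatin regulator Trim33 had 6.29, 4.99 and 4.35 TPM and Trim11 had 5.28, 4.73 and 4.85 TPM. Trim65, a ligase for the RNA sensor of Ifih1, had 3.93, 3.46 and 3.89 TPM, and Trim23, which also carries a GTPase domain, had 3.64, 3.03 and 2.86 TPM. Trim32, mutated in a muscular dystrophy in humans, had 2.39, 1.98 and 2.01 TPM, and Trim13, an endoplasmic reticulum ligase, had 2.52, 1.95 and 1.70 TPM.

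Several antiviral members were scarce or without counts. Trim62 had 0.91, 0.86 and 0.96 TPM and Trim68 had 1.00, 0.69 and 0.65 TPM in replicates 1, 2 and 3. Trim38, which limits signalling through Tab2 in other cells, had only 1, 2 and 3 expected counts, or 0.02 TPM in each library. Trim29 had 4, 8 and 6 expected counts. Trim31 and Trim40, known from gut epithelium, had 0 counts throughout, a result that levels of up to 0.0322 and 0.0737 TPM could give (3 counts in a library, counting error only).

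Among the remaining members, Trim41 at 16.33, 14.86 and 16.68 TPM was the sole gene with a mean above 10 TPM, and Trim44, which has no RING domain, followed at 9.28, 7.74 and 8.06 TPM in replicates 1, 2 and 3. Trim3 had 5.94, 4.27 and 4.39 TPM, Trim37 2.52, 3.28 and 3.26 TPM and the nuclear receptor cofactor Trim24 2.75, 2.42 and 2.18 TPM. Trim39 had 2.44, 1.79 and 1.57 TPM and Trim47 1.26, 2.58 and 1.53 TPM. The detection threshold fell between Trim47, whose lowest library had 1.26 TPM, and Trim59, whose lowest libraries had 0.99 TPM.

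Below the threshold, Trim36 had 1.28, 0.97 and 0.96 TPM in replicates 1, 2 and 3. Trim16 had 0.60, 1.19 and 0.61 TPM, with replicate 2 highest. Trim2, Trim45, Trim7, Trim46, Trim17 and Trim15 had means of 0.637, 0.523, 0.507, 0.39, 0.117 and 0.08 TPM. Trim15 had 16 expected counts in replicate 1 against 2 and 1 in the others, and Trim17 overlaps Hist3h2a, a histone gene on the same strand that had 2166, 3007 and 3363 expected counts in replicates 1, 2 and 3.

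Among the 25 silent members the highest value in any library was 0.04 TPM, for Trim69 and Trim43c, in the table with expected counts that sets these classes. In a further deposited table, made directly from the reads, Trim52, Trim63 and Trim43b were above 0.1 TPM in replicate 1, as given below. Counts were found in 11 of them, namely Trim29, Trim69, Trim43c, Trim38, Trim43b, Trim66, Trim75, Trim72, Trim43a, Trim60 and Trim67, with at most 10 in a library. The other 14 had 0 counts in every library: Trim10, Trim31, Trim40, Trim42, Trim50, Trim52, Trim54, Trim55, Trim58, Trim61, Trim63, Trim71, Trim80 and Trim9. A level of up to 0.0737 TPM, that of Trim40, could still give a count of 0 in these genes. The muscle members Trim54, Trim55, Trim63 and Trim72, the erythroid members Trim10 and Trim58 and the embryonic members Trim43a, Trim43b, Trim43c and Trim71 were silent. Of the 4 members with a COS and fibronectin domain, the neuronal genes Trim9 and Trim67 were silent and Trim36 and Trim46 were low. Of the 4 PHD-bromodomain members Trim28, Trim33 and Trim24 were detected and Trim66 was silent. Of the 4 NHL repeat members Trim3 and Trim32 were detected, Trim2 was low and Trim71 was silent.

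Whether members differed between libraries by more than counting error was tested on expected counts with edgeR's likelihood ratio test at a dispersion of 0 (Benjamini-Hochberg adjusted p under 0.05 over all 12515 genes that passed the low-count filter). Of 40 members past the filter 29 (72.5%) differed, against 71.7% of all genes tested. The spread beyond counting error was estimated as edgeR's biological coefficient of variation (BCV). Each gene's BCV is drawn towards a trend over all genes, and members that did not pass the test have one too (0.138 for Trim11). The BCV had a median of 0.170 over the 40 members and 0.172 over all genes tested. Without replicate 1, 19 of the 40 differed (47.5%), of which 18 were among the 29, against 40.5% of all genes tested. A total of 13 of the 40 members differed among all libraries and whichever library was left out, against 22.2% of all genes tested, and that count includes the 4 Trim30 genes.

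The library with the highest value was then counted for each group. On log2 CPM, counts scaled to TMM library sizes, replicate 1 was highest for all 4 Trim30 genes and for all 5 tested neighbours. It was highest for 7 of 17 other antiviral members and 3 of 14 remaining members, and for 39.8% of all genes tested. Replicate 2 was highest for 9 of the 40 members and 32.6% of all genes tested, and replicate 3 for 12 members and 27.7%. Relative to the mean of replicates 2 and 3, replicate 1 was higher by a median of 0.63 (log2) for the Trim30 genes and 0.32 for their neighbours. The medians were -0.04 for the other antiviral members, -0.18 for the remaining members and -0.01 for all genes tested. With library totals, median-of-ratios factors or TPM over nuclear protein-coding genes as the scale, all 4 Trim30 genes stayed highest in replicate 1, as did the neighbours except Trim5, which was then highest in replicate 2. On plain TPM replicate 1 was higher by a median of 0.28 over the 13579 genes that averaged 10 or more counts, and by 0.88 for the Trim30 genes. The Trim30 genes are related copies that lie side by side, but of the 4 only Trim30a and Trim30d had counts that mark shared reads. Such counts were also found for Trim12a, Trim34a, Trim12c and Trim5 among the neighbours. Genes of this locus were therefore not taken as independent of each other.

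**Figure D3:**
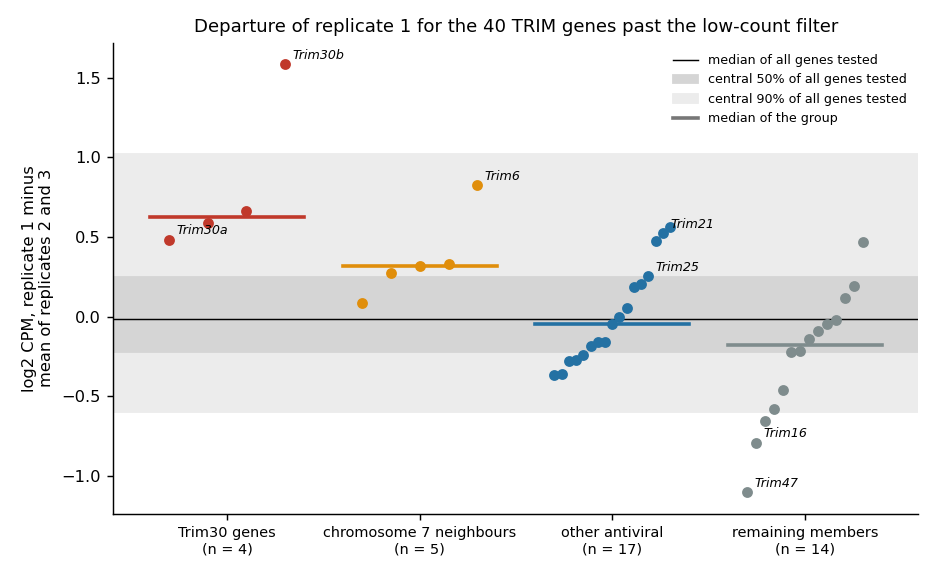
Each point is a member past the low-count filter, with log2 CPM in replicate 1 minus the mean of replicates 2 and 3 on the vertical axis and coloured lines at group medians. The black line, dark band and light band give the median, central 50% and central 90% of all 12515 genes tested. All Trim30 genes and neighbours lie above 0, from 0.08 for Trim5 to 1.58 for Trim30b, and Trim47 is lowest at -1.10.

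Trim30b departed most. It had 61.7, 16.5 and 25.5 CPM in replicates 1, 2 and 3, a log2 difference of 1.58 for replicate 1 and a BCV of 0.429, at percentile 95.2 of all genes tested (adjusted p = 1.12e-265, edgeR likelihood ratio test). Trim30c had 115.7, 66.3 and 80.4 CPM, Trim30d 297.7, 185.0 and 212 CPM and Trim30a 809, 536 and 625 CPM, with log2 differences of 0.66, 0.59 and 0.48. The BCVs of Trim30c, Trim30d and Trim30a were 0.210, 0.202 and 0.195, at percentiles 61.9, 60.3 and 58.2 of all genes tested. All 4 Trim30 genes also differed between replicates 2 and 3 alone, as did 40.5% of all genes tested. Their edgeR adjusted p ran from 1.54e-75 for Trim30a to 6.16e-16 for Trim30c.

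Several neighbours and antiviral members passed the test only with replicate 1 included. Trim12a, Trim12c and Trim34a were higher there by 0.27, 0.32 and 0.33 (log2), and without replicate 1 they no longer passed (edgeR adjusted p = 0.145, 0.141 and 0.428). Trim6 was higher by 0.83, with an adjusted p of 0.249 without replicate 1. Trim25 had 507, 428 and 422 CPM and Trim56 83.7, 55.5 and 57.9 CPM, and both lost the call without replicate 1 (edgeR adjusted p = 0.0689 and 0.269). Trim21, at 114.7, 72.6 and 87.6 CPM, and Trim26, at 94.9, 64.6 and 72.3 CPM, were also highest in replicate 1 and still differed between replicates 2 and 3 (edgeR adjusted p = 1.85e-16 and 1.83e-05).

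Other members were low in replicate 1. Trim28 had 51.5, 63.1 and 70.2 CPM, Trim8 120.5, 135 and 157 CPM and Trim35 141, 174 and 160.6 CPM in replicates 1, 2 and 3. Trim14 had 81.8, 86.6 and 96.4 CPM and was thus lowest in replicate 1 by CPM, although highest there by TPM. Trim47 had 2.95, 8.16 and 4.98 CPM and Trim16 2.75, 6.56 and 3.50 CPM, both highest in replicate 2. The members that did not pass the test were Trim11, Trim3, Trim23, Trim5, Trim24, Trim32, Trim13, Trim59, Trim36, Trim68 and Trim2, with edgeR adjusted p from 0.0548 for Trim5 to 0.688 for Trim68.

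Replicate 1 also stood apart in RNAs that stay in the nucleus. Malat1 had 1333, 118 and 152 TPM, Neat1 66.01, 13.9 and 17.6 TPM and Xist 32.6, 0.42 and 0.35 TPM in replicates 1, 2 and 3. On CPM, replicate 1 exceeded the others 10.5-fold for Malat1, 5.17-fold for Neat1 and 71.0-fold for Xist. The part of nuclear RNA in the differences between libraries was not tested. Whether Xist departed for the same reason as Malat1 and Neat1 was not tested either.

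TRIM genes under other symbols and known partners were measured beside the members. Of 4 TRIM genes with other symbols, Pml, which forms nuclear bodies, had 44.59, 25.44 and 28.93 TPM in replicates 1, 2 and 3. Mid1, a microtubule-bound ligase, had 30.55, 9.31 and 14.34 TPM and Mefv, which encodes pyrin, had 6.65, 2.12 and 2.22 TPM, while Mid2 had at most 0.03 TPM. All 9 listed genes of the E2 family were detected, led by Ube2d3 at 128 TPM and Ube2l6, the E2 of ISG15, at 105 TPM on average. Of these 8 differed between libraries and 7 were highest in replicate 1. All 13 listed substrates and signalling partners were detected, of which 12 differed between libraries and 11 were highest in replicate 1. Ddx58, the RIG-I gene on which Trim25 acts, had 154, 79.3 and 91.9 TPM, and Tab2 and Tab3, whose products Trim30a targets, averaged 26.7 and 2.94 TPM. The shares that differed stand against 71.7% of all genes tested, and those highest in replicate 1 against 39.8%.

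The interferon-stimulated response element (ISRE) is the DNA motif through which interferon-activated factors reach their targets, and its letters were sought in the RefSeq promoters, from 250 bases before to 50 bases after each start on GRCm38.p6. The letters GAAANNGAAA, on either strand, were present for 9 of the 53 members with a listed promoter (17.0%), against 3.99% of 27025 genes with one. The 9 were Trim30a, Trim30d, Trim12a, Trim34a, Trim12c, Trim5, Trim21, Trim26 and Trim2, of which 6 lie in the chromosome 7 locus. Members whose letters lie wholly upstream of a start are given with Trim30c, since the 4 Trim30 genes differ in level. Sequences run on the gene's strand, where the letters read as TTTCNNTTTC, and capitals mark the 10 bases searched.
Trim30a, chr7:104465205-104465244, minus strand: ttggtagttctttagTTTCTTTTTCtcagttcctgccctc
Trim30d, chr7:104507866-104507905, minus strand: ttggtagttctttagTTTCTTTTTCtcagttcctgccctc
Trim30c, chr7:104400891-104400930, minus strand: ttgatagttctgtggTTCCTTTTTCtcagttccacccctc
Trim5, chr7:104288131-104288170, minus strand: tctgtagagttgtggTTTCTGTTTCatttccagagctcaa
Trim12c, chr7:104353354-104353393, minus strand: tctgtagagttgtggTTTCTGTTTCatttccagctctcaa
Trim26, chr17:36836971-36837010, plus strand: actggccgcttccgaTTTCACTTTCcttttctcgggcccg
The 40 bases of Trim30a and Trim30d were identical, and those of Trim30c differed from them at 6 bases, 1 of which lies within the capitals (T3C, counted from 1 at the first capital, the base of Trim30a first). This Trim30c window was sought after the levels had been seen. Trim5 and Trim12a had the same 40 bases around their letters, but for Trim12a these lie after the listed start. Trim26 holds an overlapping further match and Trim21 holds overlapping matches after its start. The listed Trim30b start lies downstream of the exon that codes for its RING domain, so that window is not the start of the coding transcripts.

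Of the 9 members with the letters 8 were detected, 7 reached a mean of 10 TPM and none was silent. Of the 44 without them 15 were detected, 5 reached 10 TPM and 20 were silent. Replicate 1 had the highest CPM for 8 of the 9 tested members with the letters and for 9 of the 22 tested members without them, and the background was 39.8%. Most of the 9 lie in the chromosome 7 locus, among them the close copies Trim30a and Trim30d and the close copies Trim5, Trim12a and Trim12c. Genes of this locus were not taken as independent of each other. The tested genes of that locus without the letters, Trim30b, Trim30c and Trim6, were also highest in replicate 1. These counts therefore cannot separate the letters from the locus. The highly expressed Trim25, Trim30c and Trim28 have listed promoters without these letters, and Trim14, Trim35 and Trim8 have none listed. The letters TTCNNNGAA of the interferon-gamma element were present for 6 of 53 members, against 9.55% of all genes, and GGGANNTTCC of NF-kB for 1 (Trim28), against 1.63%. A match describes letters and is not a bound site.

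The transcript tables add which form of each gene was present. Of the 29 detected members with more than 1 annotated transcript, 25 had a coding transcript in the lead, by the mean over libraries of the authors' percent of the gene's TPM. The leading form was not the same in every library for 7 of them, namely Trim12a, Trim28, Trim26, Trim65, Trim32, Trim39 and Trim47. Trim30a was almost wholly the coding Trim30a-201, at 97.8%, 99.8% and 99.8% in replicates 1, 2 and 3. Trim30d was split between the coding forms Trim30d-202, at 56.4% ± 2.24, and Trim30d-201, at 43.4% ± 2.26 (n = 3 each). Trim30c has a single annotated transcript.

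Trim30b was instead led by Trim30b-202, a transcript with a retained intron, at 58.6%, 84.7% and 85.6% in replicates 1, 2 and 3. Its coding forms Trim30b-204 and Trim30b-201 held 10.8% ± 5.06 and 9.10% ± 7.72 (n = 3 each). In TPM, Trim30b-202 stood at 7.51, 2.45 and 3.72 and Trim30b-201 at 2.30, 0.17 and 0.16, so both were highest in replicate 1. In the table made directly from the reads Trim30b-202 led as well, at 68.3% ± 17.5. The TPM of Trim30b therefore does not stand for coding RNA.

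Among the other high members, Trim35-201 and Trim8-201, both coding, held 97.1% ± 1.64 and 99.1% ± 1.13 (n = 3 each). Trim34a was shared by the coding forms Trim34a-203, at 50.9% ± 1.80, and Trim34a-201, at 45.6% ± 1.06. Trim14-201 held 54.6%, 89.8% and 96.2% in replicates 1, 2 and 3, the remainder in replicate 1 being mostly the noncoding Trim14-204 at 38.3%. Trim25-203 held 97.9% ± 3.22 in this table but 74.8% ± 4.14 in the table made directly from the reads. The leading transcript differed between the tables for Trim12a, Trim28, Trim26 and Trim39. By the mean, short noncoding forms led Trim12a (Trim12a-206, 46.0%) and Trim28 (Trim28-203, 41.6%) in the authors' table and coding forms in the other. The noncoding Trim26-209, of 2249 bases, led Trim26 at 29.0% in the authors' table. It held 7.0% in the other, where the coding Trim26-205 led at 40.7%. Trim26-205 also led in replicate 1 of the authors' table, at 28.6% against 27.6%. In the authors' table the coding Trim12a-203 nevertheless led in replicate 1, at 45.0% against 41.5%, and the coding Trim28-201 in replicate 3, at 46.3% against 38.0%. Which form leads these genes is uncertain.

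Gene levels were close between the 2 kinds of table only after rescaling. In TPM as deposited, Trim30a averaged 114 with expected counts and 58.8 in the table made directly from the reads. Between these tables the mean TPM moved by at least its SD over libraries for 33 of 38 members compared. With each rescaled to nuclear-encoded protein-coding genes, the table made directly from the reads minus the table with expected counts gave a median log2 difference of 0.01 over the 30 detected members, from -0.30 for Trim28 to 0.21 for Trim25. Trim30a, Trim30d, Trim30c and Trim30b differed by 0.03, 0.03, 0.12 and 0.21.

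**Figure D4:**
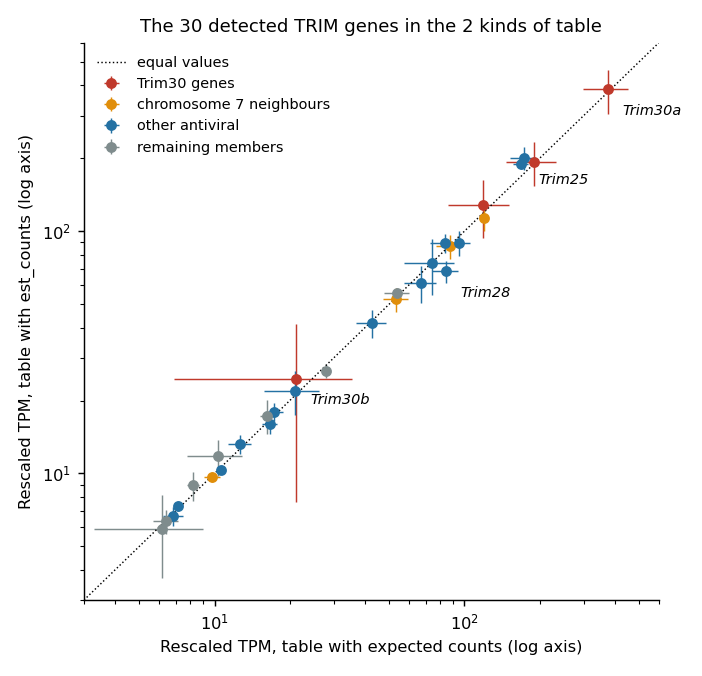
Mean TPM rescaled to nuclear-encoded protein-coding genes for the 30 detected members, in the table with est_counts (vertical, log axis) against the table with expected counts (horizontal, log axis), with error bars of 1 SD over 3 libraries and a dotted line of equal values. Points lie along the line, with Trim28 below it and Trim25 above it, and Trim30b has wide bars in both directions.

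Some members overlap other annotated genes, and the sources used here do not give the strand setting of the counting. The extents of Trim14 and Nans, of Trim41 and Rack1, of Trim28 and Zbtb45, and of Trim13 and Dleu2 overlap on opposite strands. Whether their exons overlap was not tested, and where they do, reads may not be told apart. Of these members only Trim14 had counts that mark shared reads. Those of Nans, at 660.1, 1462.18 and 1559.93 in replicates 1, 2 and 3, were not whole numbers either. Counts of Trim41, Trim28 and Trim13 lay within 0.05 of whole numbers. Dleu2 had 1221, 330 and 401 expected counts in replicates 1, 2 and 3, more than the 153, 242 and 231 of Trim13, and Rack1 had 4870, 10545 and 10156 against 2143, 3599 and 4158 for Trim41. Trim47 and Trim65 overlap on the same strand. The antisense genes at the chromosome 7 locus were low, with 32, 37 and 28 expected counts for Gm15133 at Trim12a and 39.6, 44.7 and 30.8 for Gm47248 at Trim34a.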

How the data were processed

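The 3 libraries of cytosolic RNA form one group, so no contrast between conditions was possible. The authors deposited expected counts and TPM per gene and transcript on mm10 with GENCODE M21, per the notes with the files. The same tables give each transcript's percent of its gene's TPM and, as a score, the posterior SD of a count, named so per the file headers. A further deposited transcript table, made from the reads, gives estimated counts and TPM. The sources used here give no tool versions, filters or strand setting.

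Members and lists were chosen with earlier results of these data known. Every member is named by rule, with the Trim30 and other antiviral members given per library. Trim30e-ps1, Hist3h2a and the genes that overlap members were named after their values were seen.

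Expected counts were rounded for edgeR 4.0.16 in R 4.3.3 (filterByExpr, TMM). Entries that name no gene (0.435%, 0.134% and 0.0823% of counts in replicates 1, 2 and 3) were left out. The likelihood ratio test was tested on simulated data. DESeq2 1.42.0 gave size factors for an alternative. Proteins were translated from GENCODE M21 transcripts and aligned with Biopython 1.88, and the longest complete product was used for each gene. Promoters are from RefSeq, and 53 of 68 members matched by symbol. Limits for 0 counts cover counting error only. Depth sets the precision of low members, since 3 counts were worth at most 0.0737 TPM in the members at 0.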

Additional observations from a re-analysis of the deposited data

Results flagged for a closer look

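In the table made directly from the reads, 4 members that had 0 expected counts in every library had estimated counts above 3 in replicate 1: Trim52 with 25.6, Trim63 with 19.0, Trim50 with 9.30 and Trim9 with 6.35. All 4 were at or below that limit in replicates 2 and 3. A further 4 silent members with expected counts had more than 3 counts above them in replicate 1: Trim67 with 27.2 estimated against 1 expected, Trim43b with 18.9 against 1.02, Trim43c with 11.0 against 3.07 and Trim43a with 4.43 against 1. Trim67 also had 3.85 against 0 in replicate 2. By the TPM of this table Trim52, Trim63 and Trim43b had 0.968, 0.264 and 0.122 in replicate 1, above the 0.1 TPM limit for silent members. The other members named here were under that limit. The values are given because the silent calls above did not use this table. Their source was not tested.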

How the results depend on the processing

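Of the 68 members 16 were detected at 5 TPM and 23 by the TPM of the table with estimated counts, where nuclear protein-coding genes take less of the total, and 37 to 40 under the other detection rules, including 39 with either table rescaled. Leaving out any library kept 30. Silent members numbered 14 when 0 expected counts were required and 15 in the rescaled table with estimated counts, an alternative chosen after seeing the data, while the other settings, leaving out a library included, gave 21 to 27. The median log2(TPM + 1) of 0.89 was -0.069 with a pseudocount of 0.1, 2.56 for members past the low-count filter, 0.49 in the table with estimated counts and 1.99 when that was rescaled. Without each library it was 0.84 to 0.92. The Trim30 share of family TPM stayed within its SD, at 35.1% in the table with estimated counts, 35.7% of expected counts and 32.3% to 36.7% without each library. Members that differed between libraries numbered 29 with DESeq2 size factors or Pearson's chi-square, 35 of 54 with no filter (54.5% of all genes), and 19 to 26 without each library, lowest without replicate 1, against 40.5%, 58.3% and 61.7% of all genes without replicates 1, 2 and 3. Their median BCV was 0.0975 without replicate 1, 0.180 without replicate 2 and 0.208 without replicate 3, against 0.105, 0.194 and 0.220 for all genes. The count of coding leads was 28 in the table with estimated counts, against 25. The cause of these shifts was not tested, apart from those that follow from the cutoff, pseudocount or genes used. No paired analysis was possible because all libraries belong to a single group. Depth limits what can be said of members with few counts.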
